A study of Mus musculus with 16 samples.

Results

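Livers lacking both FXR and SHP were compared with livers lacking SHP alone at 3 weeks of age. Of the 2 deleted genes only FXR thus differed between the groups. Other genetic differences between the lines were not tested. The samples were the 2 arrays titled as double knockout and the 2 titled as SHP-/- at that age, 4 of the 16 arrays of the series. Genes were included where their probe was detected (detection p under 0.01 against the negative control probes of the array) on both arrays of either group. This gave 7553 genes of the 8140 that were tested anywhere in the series. All values are background-corrected, normalised log2 intensities, and a difference of 1 is a 2-fold change. A fold given as at least a value is a bound on this scale only, and other processing gave smaller differences for some genes. The SHP-/- mice carried a deletion of Nr0b2 with intact Nr1h4, and the double knockouts, bred from the single knockouts, carried deletions of both. All were male, on a congenic C57BL/6 background, fed normal chow under a regular light cycle and killed 3 weeks after birth. The wild-type and FXR-/- arrays of the same age, and the SHP-/- and double knockout arrays at 5 weeks, serve below as comparisons; wild-type animals came from a commercial breeder, unlike the knockouts. Both knockouts remove the receptors from the whole animal, so the liver RNA can reflect loss in other organs. The labels do not say that the 2 arrays of a group came from separate animals, so the p-values measure the spread between arrays, which may be technical.

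FXR (Nr1h4) is a nuclear receptor that is activated by bile acids. In hepatocytes it switches on bile salt export and, with its partner RXR, induces SHP (Nr0b2), a receptor without a DNA-binding domain that represses other factors on the promoters of bile acid synthesis genes such as Cyp7a1. FXR in the intestine also induces FGF15, which reaches the liver and lowers Cyp7a1. In SHP-/- mice the SHP arm is already absent, and the comparison asks what FXR still does there.

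Between 9903 and 10339 of 24613 probes were detected on the 4 arrays. The second double knockout array had lower control signals, where biotin read 1850.6 (2834.2 to 3186.7 elsewhere) and Cy3 hybridisation 2481.5 (4706.4 to 4861.3 elsewhere), while 10224 probes were detected on it. The double knockout duplicates also differed more from each other, by a median of 0.186 log2 units per gene against 0.102 in SHP-/-. Hepatocyte markers averaged 12.47 and 12.44 in the double knockout and 12.50 and 12.52 in SHP-/-, the levels of a liver sample. The Y-linked gene Eif2s3y was detected on all 4 arrays, at 7.36 and 7.23 in SHP-/- and 7.51 and 7.01 in the double knockout. It was detected on 0 of the 2 FXR-/- arrays at 3 weeks (4.30 and 4.17), which are labelled male, and the comparisons below that use those arrays rest on libraries that go against that label on this probe. A second Y-linked gene, Kdm5d, was detected on both SHP-/- arrays (4.94 and 4.92) but on neither double knockout array (4.80 and 4.78) nor FXR-/- array (4.62 and 4.70).

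The deleted receptor behaved as the labels say. Nr1h4 stood at 11.14 and 11.16 on the SHP-/- arrays and at 4.28 and 4.23, not detected, on the double knockout arrays. Its signal was at least 80.4-fold lower (log2 difference -6.90 ± 0.11 SE, limma adjusted p = 3.4e-18). The single probe for Nr0b2 was detected on 0 arrays of any group, wild type included, and could not check the SHP deletion.

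Of the 7553 genes, 1997 (26.4%) differed between the double knockout and SHP-/- livers at an adjusted p under 0.05 in limma. The 1036 genes that rose were 13.7% of all genes and the 961 that fell were 12.7%, and the lower and upper quartiles of all genes lay at -0.19 and 0.19 on the log2 scale. At least 2-fold changes were found for 279 genes (3.69%), 174 up and 105 down. The fit took its spread from all 16 arrays. With the 4 compared arrays alone the count was 1045, and without the second double knockout array it was 1678, of which 1383 were also among the 1997. The 2-fold count was 180 with quantile normalisation and 128, 76 up and 52 down, on the authors' processed values. Of the 7553 genes, 6731 were detected on all 4 arrays, and 1718 of these (25.5%) changed. The 499 genes that were detected on both double knockout arrays but not on both SHP-/- arrays, and the 323 of the reverse kind, could pass the detection rule only through the group in which they were high. The detection rule in the other comparisons gave 7464 and 7571 genes.

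**Figure D1:**
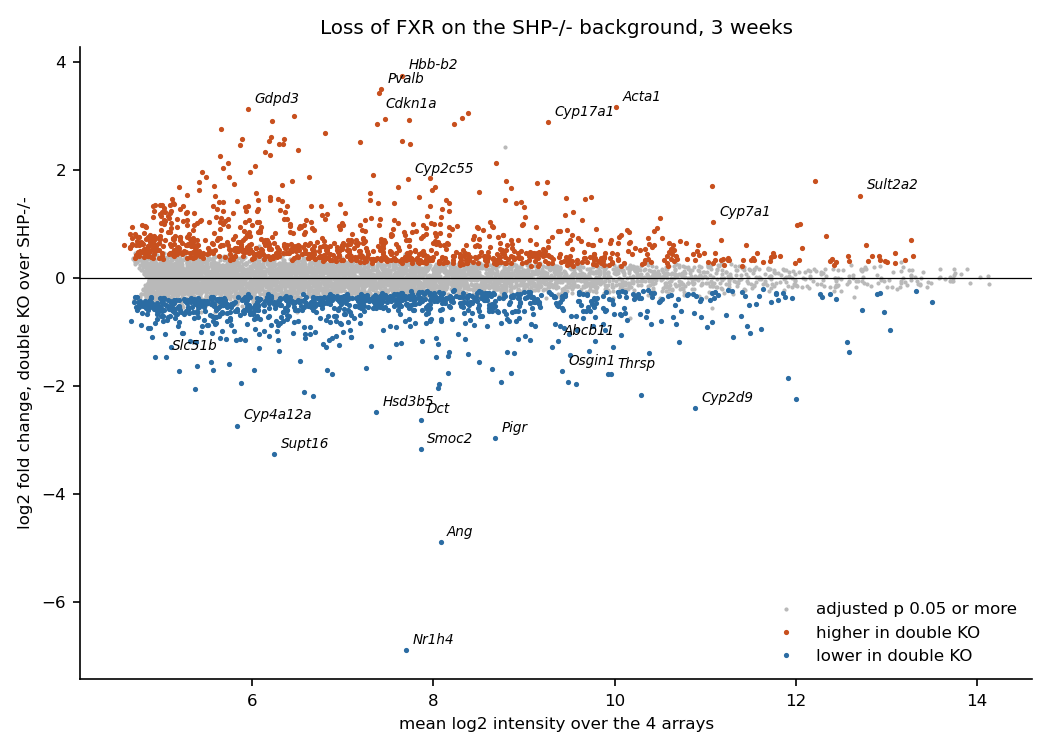
Log2 fold change of each gene, double knockout over SHP-/- at 3 weeks (y axis), against its mean log2 intensity over the 4 arrays (x axis); each point is 1 of 7553 genes, coloured where the adjusted p is under 0.05. Nr1h4 at -6.90 and Ang at -4.89 lie far below the other genes, and changes of both signs run over the whole range of levels.

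The counts of every gene list below are to be read beside the 13.7% of all genes that rose and the 12.7% that fell. Bile acid synthesis genes moved little as a list. Of 13 measured members 3 rose, 1 fell and 9 did not pass, with a median of 0.01. Cyp7a1, the rate-limiting enzyme of the classical pathway, read 10.50 and 10.63 in SHP-/- and 11.40 and 11.80 in the double knockout. The groups did not overlap, and Cyp7a1 rose 2.04-fold (1.03 ± 0.10, adjusted p = 5.6e-07). Cyp7b1, an enzyme of the alternative pathway, rose by a similar amount, from 7.97 and 8.06 to 8.75 and 9.17 (0.94 ± 0.12, adjusted p = 9.3e-06). Cyp8b1, the sterol 12-alpha-hydroxylase that sets the share of cholic acid, was already among the brightest genes at 13.02 and 12.88 in SHP-/-. It read 13.23 on both double knockout arrays, a rise of 0.28 ± 0.08 (adjusted p = 0.021) that did not pass with the 4 compared arrays alone, without the second SHP-/- array or without the detection filter (range of adjusted p over the alternatives 0.017 to 0.19). Slc27a5, which activates bile acids to their CoA form before conjugation, fell from 12.38 and 12.46 to 12.06 and 12.17 (-0.31 ± 0.07, adjusted p = 0.0052), a call lost with the 4 compared arrays alone and without 1 SHP-/- array. The remaining members did not pass the test and lay between -0.18 for Scp2 and 0.27 for Akr1c6; they were Cyp27a1, Cyp39a1, Hsd3b7, Akr1c6, Acox2, Scp2, Slc27a2, Baat and Cyp2c70. For Cyp27a1 a second probe gave a fall (-0.57), and for Scp2 both other probes did (-0.68 and -0.67), each past the threshold. The probes of these genes thus disagree. Baat, which conjugates bile acids to taurine and glycine, spread widely in the double knockout (9.09 and 7.97 against 8.71 and 8.68). Without the first double knockout array Hsd3b7 (0.34, adjusted p = 0.011), Acox2 (0.27, adjusted p = 0.024) and Baat (-0.72, adjusted p = 0.0042) passed the test.

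Among the bile salt transporters, both export genes best known as FXR targets fell. Slc51b, the beta subunit of the basolateral exporter OST, read 5.77 and 5.79 in SHP-/- and 4.41 and 4.22, not detected, in the double knockout, at least 1.94-fold lower (log2 difference -1.46 ± 0.11, adjusted p = 1.2e-08). Abcb11, the canalicular bile salt export pump, fell from 9.91 and 10.02 to 8.75 and 8.82, or 2.27-fold (-1.18 ± 0.09, adjusted p = 1.9e-08). Its double knockout arrays lay more than 1 log2 unit below both SHP-/- arrays. The promoter windows of these 2 genes are shown because both fell and both are textbook targets of FXR, which binds an inverted repeat of the hexamer AGGTCA spaced by 1 base. They run from 250 bases before to 50 bases after the RefSeq start in GRCm38.p6, 5′ to 3′ on the gene's strand (minus for both). Capitals mark exact AGGTCA hexamers on either strand and a match to the inverted repeat with up to 2 mismatches, and where the hexamer and the inverted repeat overlap the capitals run together.
Slc51b, chr9:65422724-65423023: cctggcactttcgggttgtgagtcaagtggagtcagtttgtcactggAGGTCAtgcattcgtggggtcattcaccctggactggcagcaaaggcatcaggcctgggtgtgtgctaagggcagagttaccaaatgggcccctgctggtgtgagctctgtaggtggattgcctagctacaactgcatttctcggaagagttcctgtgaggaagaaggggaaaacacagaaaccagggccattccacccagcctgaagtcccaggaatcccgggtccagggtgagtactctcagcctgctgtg
Abcb11, chr2:69342567-69342866: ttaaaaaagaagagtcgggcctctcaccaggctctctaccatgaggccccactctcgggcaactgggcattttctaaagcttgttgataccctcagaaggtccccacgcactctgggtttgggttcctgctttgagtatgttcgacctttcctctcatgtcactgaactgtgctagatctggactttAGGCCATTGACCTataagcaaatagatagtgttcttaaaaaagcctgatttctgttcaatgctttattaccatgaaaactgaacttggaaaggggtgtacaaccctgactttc
The Abcb11 window held the inverted repeat with 1 mismatch, beginning 63 bases before the start, and the Slc51b window held 1 hexamer and no such repeat. With up to 2 mismatches, the repeat was in 374 (1.14%) of 32851 promoter windows in the RefSeq table, and a hexamer was in 16.3%. Of the 7925 windows of the measured genes 76 (0.96%) held the repeat and 1068 (13.5%) a hexamer. Among the windows of genes that fell the numbers were 12 and 151 of 1010, and among those of genes that rose 12 and 172 of 1070. The windows of Abcc4 (2 entries) and Pdk4, searched in the same way, held neither.

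Other transporters moved in both directions. Slc10a1 (NTCP), the sodium-dependent uptake carrier, read 6.84 and 7.08 in SHP-/- and 6.00 and 5.88 in the double knockout, a 2.03-fold fall (-1.02 ± 0.15, adjusted p = 3.8e-05). Slc22a7, an organic anion transporter, fell by 0.47 on the log2 scale (adjusted p = 0.0072), a call lost with the 4 compared arrays alone and without the first SHP-/- array. Abcc4 (MRP4), which pumps bile acids back to blood, rose from 5.32 and 5.37 to 6.97 and 6.60, or 2.71-fold (1.44 ± 0.14, adjusted p = 4.7e-07). Abcc3 (MRP3), a pump of the same membrane, rose by 0.65 and the uptake carrier Slco1a4 by 0.98, with non-overlapping arrays for both. Small rises of 0.31 for Abcc2 (MRP2) and 0.34 for Abcg8, a canalicular sterol transporter subunit, were lost with the 4 compared arrays alone and without the second SHP-/- array, the former also without the second double knockout array, and a second Abcc2 probe gave a difference of -0.15. Abcb4, the canalicular phospholipid flippase and a reported FXR target, read 11.10 and 10.96 against 11.02 and 11.14, with overlapping arrays (0.05 ± 0.07, adjusted p = 0.66). Abcg5 and Slco1b2 did not pass either (-0.05 and -0.20), the latter passing without the first double knockout array (-0.37, adjusted p = 0.047). In all, 5 of 12 measured transport genes rose, 4 fell and 3 did not pass, beside 13.7% and 12.7% of all genes, and Slc51a, the partner of Slc51b, was not detected.

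**Figure D2:**
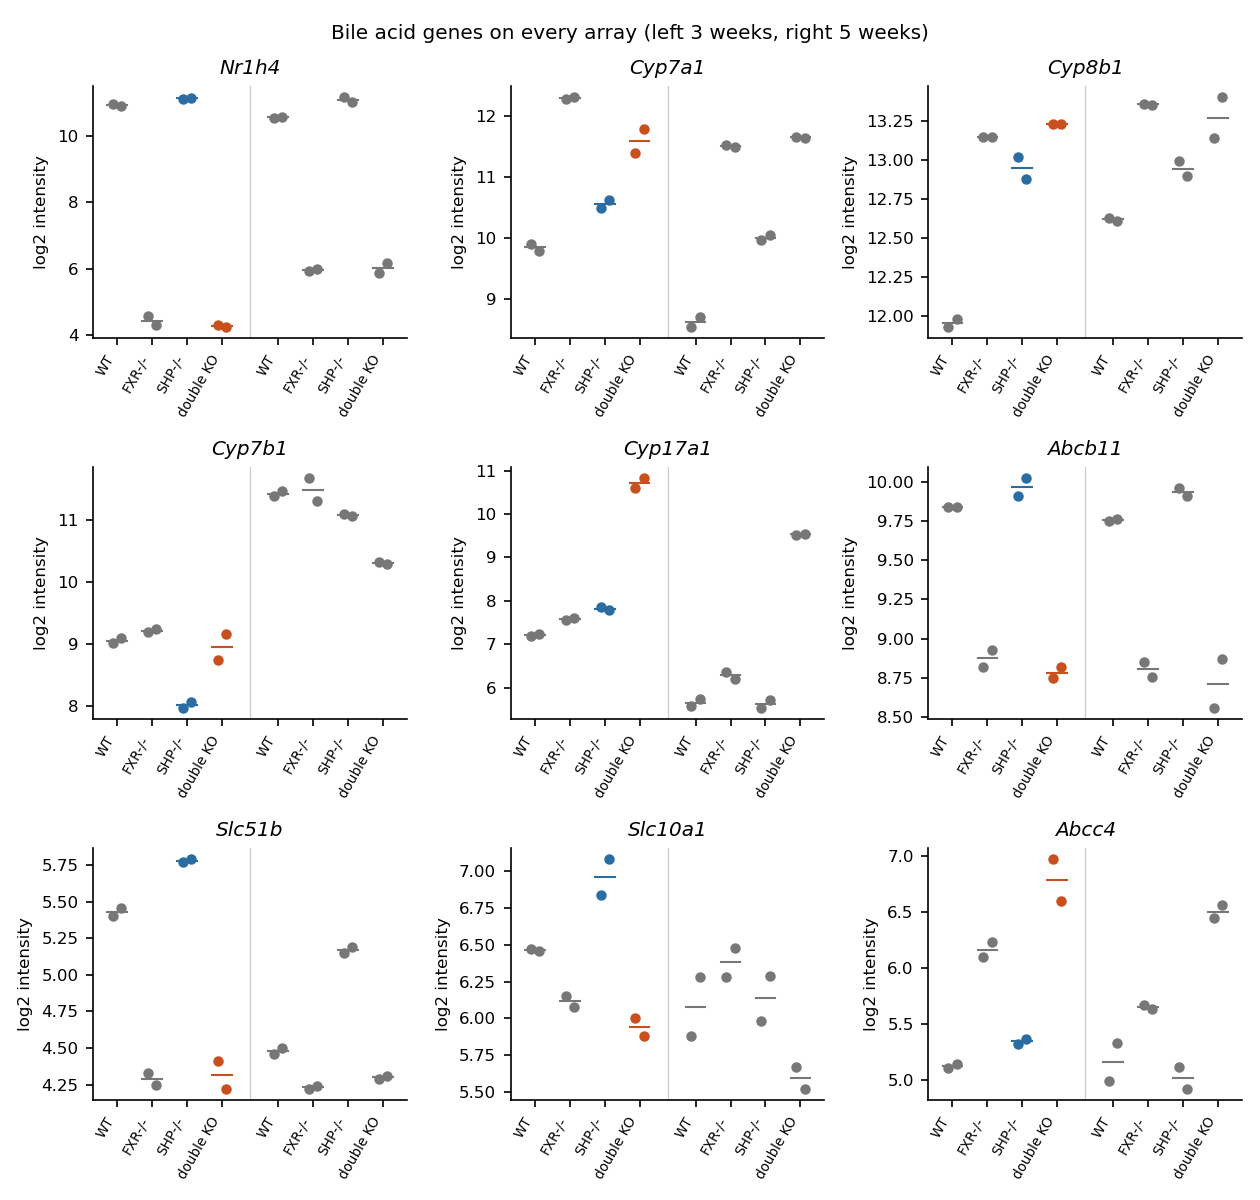
Log2 intensity of 9 bile acid genes on all 16 arrays, points for single arrays and bars for group means, with 3 weeks left and 5 weeks right of the line; SHP-/- at 3 weeks is blue and the double knockout at 3 weeks orange. Abcb11 is at 8.75 and 8.82 in the double knockout against 9.91 and 10.02 in SHP-/-, and Cyp17a1 stands at 10.59 and 10.82 against 7.86 and 7.78.

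Among 21 measured genes reported elsewhere as FXR targets, 8 fell, 3 rose and 10 did not pass, with a median of -0.17. Without the second double knockout array the counts were again 8 and 3 and the median -0.06. Falls beside those of the transporters included Apoc2, the cofactor of lipoprotein lipase, from 8.60 and 8.56 to 7.30 and 7.64 (-1.11 ± 0.12, adjusted p = 1.7e-06). Sdc1 (syndecan-1), a proteoglycan that takes up lipoprotein remnants, fell by 0.79, although a second probe gave -0.24 and did not pass. Rdh9, a retinol dehydrogenase, fell by 0.73, and Gnmt, which consumes S-adenosylmethionine, by 0.70. Apoa5, an activator of triglyceride clearance, read 8.64 and 8.61 in SHP-/- but 7.83 and 8.52 in the double knockout, so its fall (-0.45 ± 0.15, adjusted p = 0.034) was -0.10 without the first double knockout array and was lost in 7 alternatives. Members of the list that rose were Pdk4, the kinase that shuts pyruvate dehydrogenase (5.73 and 5.71 to 7.12 and 7.0, 1.33 ± 0.11), the VLDL receptor gene Vldlr (7.73 and 7.69 to 8.59 and 8.68, 0.93 ± 0.13) and Fetub, a secreted protease inhibitor (0.60 ± 0.09). No difference past the threshold was found for Apoc3, Pltp, Fga, Fgg, Kng1, Ppara, Insig2, Cyp3a11, Baat or Abcb4, whose differences lay between -0.31 for Fgg and 0.19 for Cyp3a11. Of these, Insig2 (adjusted p = 0.0062), Baat, Fgg (adjusted p = 0.017) and Cyp3a11 (adjusted p = 0.046) passed without the first double knockout array, and another Insig2 probe fell (-0.38, adjusted p = 0.0082). Fga and Kng1, a fibrinogen chain and kininogen, are secreted liver proteins near the top of the intensity range (13.66 to 14.10).

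Of the 11 measured nuclear receptors and partners 2 fell, Nr1h4 among them, and 1 rose. Mafg, a small Maf repressor of bile acid genes that FXR induces, fell from 8.22 and 8.25 to 7.44 and 7.90 (-0.56 ± 0.12, adjusted p = 0.0024). Hnf4a, the hepatocyte master regulator, rose by 0.34 (adjusted p = 0.0036), a call lost with the 4 compared arrays alone. Nr5a2 (LRH-1), Nr1h3 (LXR-alpha), Nr1i2 (PXR), Ppara, Foxa2, Klb, Ncoa1 and Prox1 did not pass, with differences between -0.54 for Foxa2 and 0.30 for Nr5a2. Leaving out 1 double knockout array brought Nr5a2 (0.60, adjusted p = 0.0018) or Klb (0.44, adjusted p = 0.0091) past the threshold, and Foxa2 passed in 4 other alternatives. Without the second double knockout array 2 of the 11 rose and 2 fell.

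The largest falls after Nr1h4 were those of Ang, Supt16, Smoc2 and Pigr. Ang, an angiogenic ribonuclease made by hepatocytes, dropped from 10.46 and 10.60 to 5.85 and 5.42 (-4.89 ± 0.12, adjusted p = 3.8e-15). Pigr, the receptor that carries IgA into bile, fell from 10.28 and 10.06 to 7.19 and 7.20 (-2.97 ± 0.09). Smoc2, a matrix-associated protein, fell from 9.47 and 9.42 to 6.34 and 6.21 (-3.17 ± 0.10). None of these genes had overlapping arrays. Supt16, a subunit of the FACT chromatin complex, fell at least 8.34-fold by its brighter probe, but its second probe did not change (-0.02), so the gene's direction is uncertain. Other falls with non-overlapping arrays were Dct (-2.63), a melanin-pathway enzyme also called dopachrome tautomerase, Ndrg2 (-2.24), a stress-responsive gene, Chrna4 (-2.19), a nicotinic receptor subunit, and the lysosomal transporter Slc46a3 (-2.18).

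The largest rises held many genes of striated muscle. Of the 12 largest, 8 encode muscle proteins or enzymes: Pvalb, Acta1, Tnni2, Ckmt2, Atp2a1, Tpm2, Fabp3 and Pgam2, with log2 differences of 2.91 to 3.49, although a second Tpm2 probe gave 0.87. Of 20 tested skeletal muscle markers, 18 met the detection rule and 18 of those rose (median 2.19); 6 were not detected on the SHP-/- arrays. The mean over the 20 was 7.34 and 7.40 in the double knockout, 5.45 and 5.42 in SHP-/-, 6.54 and 6.57 in the FXR single knockout and 4.58 and 4.62 in wild type at 3 weeks. At 5 weeks the groups stood in another order, as given below. Acta1, skeletal muscle actin, read 8.50 and 8.38 in SHP-/- against 11.48 and 11.72 in the double knockout, and Myh4, a fast myosin named after its values were seen, was not detected in either group. In whole-tissue RNA, more cells of a type and more RNA per cell cannot be told apart, and the part that muscle RNA plays in these results was not tested.

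The other 4 large rises were not of muscle genes. Cdkn1a (p21), an inhibitor of the cell cycle, rose from 5.86 and 5.53 to 9.09 and 9.14, or 10.7-fold (3.42 ± 0.12, adjusted p = 3.6e-13). Cyp17a1, the steroid 17-alpha-hydroxylase, rose from 7.86 and 7.78 to 10.59 and 10.82, or 7.37-fold (2.88 ± 0.10, adjusted p = 6e-13). Gdpd3, a lysophospholipase D, was not detected in SHP-/- (4.30 and 4.49) and read 7.56 and 7.47 in the double knockout, at least 6.22-fold higher on this scale. Its log2 difference was 3.12, and 1.66 at the lowest over the alternatives. Hbb-b2, an adult beta-globin, rose from 5.74 and 5.84 to 9.61 and 9.44 (3.74 ± 0.10). The near-identical globin Hbb-bt moved the other way, from 7.53 and 7.62 to 7.35 and 7.02 (-0.39 ± 0.14, adjusted p = 0.049), a call lost in 8 alternatives, and cross-hybridisation between these genes could not be separated. Of 7 measured erythroid markers 3 rose and 1 fell, and without the second double knockout array 2 rose and 0 fell.

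Genes that differ between male and female mouse liver moved by list. Of 14 measured male-biased genes 9 fell, 1 rose and 4 did not pass (median -1.11), and of 16 female-biased genes 11 rose and 5 did not pass (median 1.04). Cyp2d9, a male-specific P450, fell from 12.06 and 12.14 to 9.84 and 9.52 (-2.42 ± 0.09), and Hsd3b5, a male-specific steroid reductase, from 8.72 and 8.52 to 5.92 and 6.33 (-2.49 ± 0.12). Cyp4a12a, which makes 20-HETE, went from 7.18 and 7.23 to undetected, at least 5.22-fold lower. Hao2, a hydroxyacid oxidase, rose from 6.37 and 6.65 to 9.23 and 8.73 (2.47 ± 0.16), and Cyp2a4, a testosterone hydroxylase, from 11.33 and 11.31 to 13.21 and 13.01 (1.79 ± 0.08). Cyp2c39, a retinoic acid hydroxylase, rose by 1.86. The female-type genes Cyp2b9 and Cyp2b13 did not pass, at 0.13 and 0.15, and Cyp7b1, male-biased in mice, was the member that rose. Both lists kept their direction without the second double knockout array (medians -0.86 and 1.23). Among 10 steroid hormone genes 2 rose, Cyp17a1 and Sult2a2 (11.92 and 11.99 to 13.43 and 13.51), a hydroxysteroid and bile acid sulfotransferase, and 4 fell, among them Sult2a8 (-0.94), a relative with activity on bile acids.

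Lipid synthesis genes split. Thrsp (Spot 14), a lipogenic regulator, fell from 10.97 and 10.75 to 8.83 and 9.29 (-1.79 ± 0.12, adjusted p = 2.5e-09), and Mlxipl (ChREBP), the sugar-sensing factor, fell from 8.84 and 8.98 to 7.90 and 7.66 (-1.13 ± 0.10). Fatty acid synthase (Fasn) fell by 0.92 and ATP citrate lyase (Acly) by 0.89, both with non-overlapping arrays. In that list of 16, 7 genes fell, 5 rose and 4 did not pass, with a median of -0.19. Of 18 cholesterol synthesis genes 10 fell, 0 rose and 8 did not pass (median -0.32). The largest fall was in Mvd, mevalonate decarboxylase, from 7.13 and 7.07 to 6.12 and 6.25 (-0.92 ± 0.12), followed by Insig1 (-0.47), a brake on SREBP, lanosterol synthase, Lss (-0.46), and the sterol carrier Stard4 (-0.46), whose call was lost without 1 array of either group. Without the second double knockout array 6 of the 18 fell.

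Fatty acid oxidation and PPAR-alpha target genes rose in 7 of 15 cases and fell in 0. Angptl4, a secreted inhibitor of lipoprotein lipase, rose from 8.91 and 9.06 to 10.52 and 10.45 (1.50 ± 0.08, adjusted p = 9.4e-11). Fgf21, a fasting hormone, was not detected in SHP-/- (4.24 and 4.27) and read 5.37 and 5.84 in the double knockout, at least 1.65-fold higher. Acadm, a beta-oxidation enzyme, rose by 0.56. In gluconeogenesis and amino acid catabolism, Pck1 rose by 0.90 while Prodh, proline dehydrogenase, fell by 1.29 and Aass, of lysine breakdown, by 0.51; 1 of 11 members rose and 3 fell. Of 22 lipoprotein genes 7 rose, 3 fell and 12 did not pass, beside 13.7% and 12.7% of all genes. Apoh read 11.05 and 4.11 in SHP-/- and 11.42 and 8.58 in the double knockout, so its duplicates disagreed and its difference of 2.42 did not pass (adjusted p = 0.19). Without the first SHP-/- array it was 5.89 (adjusted p = 4e-06), and without the second -1.05.

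Many detoxification genes rose. Of 24 measured targets of the xenobiotic receptors CAR and PXR 14 rose, 0 fell and 10 did not pass (median 0.38). Cyp2c55 rose from 6.89 and 6.74 to 8.81 and 8.46 (1.82 ± 0.13), and Cyp2b10, the usual CAR marker, from 6.81 and 6.94 to 8.23 and 7.68 (1.08 ± 0.15, adjusted p = 3.4e-05). The glutathione transferases Gsta1 and Gsta2, whose near-identical transcripts the probes may not separate, rose by 1.56 and 1.33. Cyp3a11, the main PXR marker, did not pass (0.19 ± 0.09), except without the first double knockout array, as above. Of 15 NRF2 targets 7 rose and 1 fell. The one that fell was Osgin1, a growth inhibitor induced by oxidative stress, from 10.24 and 10.32 to 8.42 and 8.69 (-1.73 ± 0.09).

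Most cell cycle genes rose. Of 23 tested genes 21 met the detection rule, and 19 of these rose, 0 fell and 2 did not pass (Ccnd1 at 0.24 and Tk1 at 0.15, named after their values were seen), with a median of 1.0. Prc1, a protein of the central spindle, rose from 5.49 and 5.16 to 7.58 and 7.80 (2.37 ± 0.18), and Birc5 (survivin) from 5.01 and 5.11 to 7.20 and 7.48 (2.28 ± 0.14). Cdc20, an activator of the anaphase-promoting complex, rose by 2.33 by its main probe and by 1.13 and 1.21 by 2 others, and Aurka, a mitotic kinase not detected in SHP-/-, was at least 3.53-fold higher. The mean over the list was 6.86 and 6.93 in the double knockout, 5.80 and 5.77 in SHP-/-, 7.13 and 7.11 in the FXR single knockout and 6.25 and 6.28 in wild type. Of these members 4 were not detected on the SHP-/- arrays. The median was 1.16 without the second double knockout array, and it was lowest over the alternatives, at 0.58, on the scale of the authors' processed values, whose 2-fold count was also lower.

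Stress, clock and immune genes moved in part. Of 11 immediate early and heat shock genes 7 rose and 1 fell; Jun rose by 1.07, Dusp1, a phosphatase that ends MAP kinase signals, by 0.84, and Ier3, an early response gene, by 0.80. Of 10 clock genes 6 fell and 1 rose. Dbp, a clock output factor, fell from 9.09 and 9.06 to 6.81 and 7.23 (-2.05 ± 0.11), Per2 fell by 1.08 and Nr1d1 (REV-ERB-alpha) by 0.85 with 1 of its other probes not past the threshold (-0.38), while Per1 rose by 0.94. The time of day of killing is not given in the labels, and its part in these values was not tested. In the ER stress list 5 of 18 rose and 5 fell, led by Nupr1 (1.26), a stress-induced chromatin protein, and Trib3 (-1.23), a pseudokinase target of ATF4. Without the second double knockout array 4 and 3 of the 18 did. Acute phase genes rose in 8 of 23 cases and fell in 4, the latter near the 12.7% of all genes. Saa3 rose by 1.02 and Hamp2, a hepcidin paralog, by 0.97, while hepcidin itself, Hamp, fell by 0.73 and Socs3, the feedback inhibitor of cytokine signalling, by 0.77. Without the second double knockout array 6 of the 23 rose and 2 fell. Interferon genes fell in 5 of 8 cases and rose in 1, with Mx2 at -1.02, although the calls of Psmb8 and Oasl1 were lost without the first SHP-/- array. The call of Ifit3 was lost in 4 alternatives, and without the second double knockout array 3 of the 8 fell. The foetal gene Igf2 fell by 0.68 and the trypsin inhibitor Spink1 from 6.12 and 6.30 to undetected, at least 2.62-fold lower, and 2 of 10 perinatal genes rose (1 without the second double knockout array).

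Markers of stellate and endothelial cells rose in part. Stellate cell and matrix genes rose in 13 of 18 cases and fell in 1 (median 0.52), with Mmp2 at 1.11 and Lox, the collagen cross-linker, at 1.05. Endothelial genes rose in 9 of 16 cases (median 0.39), including Clec4g, a lectin of sinusoidal endothelium (10.13 and 10.19 to 10.88 and 10.91). Beside the 13.7% of all genes that rose, macrophage and neutrophil genes rose in 3 of 14 cases, with the chemokine Cxcl1 at 0.93. Their median was 0.18, and 0.22 without the second double knockout array. The calls of Cd14 (0.59) and C1qc (0.40) were lost with the 4 compared arrays alone and without the second SHP-/- array. Lymphocyte genes rose in 3 of 9 cases, with the MHC class II gene H2-Eb1 at 0.80, and 1 fell, Cd8b1 (-0.59, adjusted p = 0.0093), a call lost without the second SHP-/- array. Of the 4 measured cholangiocyte markers 0 changed, and of 10 hepatocyte markers 1 rose, Apob (0.54), and 1 fell, Ass1 (-0.96), an enzyme of the urea cycle. Only 4 of 16 tested exocrine pancreas markers met the detection rule, and the mean over the 16 was 5.05 and 5.06 against 4.91 and 4.93, near background on all 4 arrays. Among stomach and intestine markers 0 of 4 rose and 2 fell, Tff3 (-1.16) and Atp4a (at least 1.44-fold). Of 5 tested adipose markers 3 met the detection rule, Plin4, Pparg and Car3, which rose by 1.42, 0.76 and 0.41. Adipoq and Cidec did not meet it. Whether shifts in cell types take part in the differences above was not tested.

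**Figure D3:**
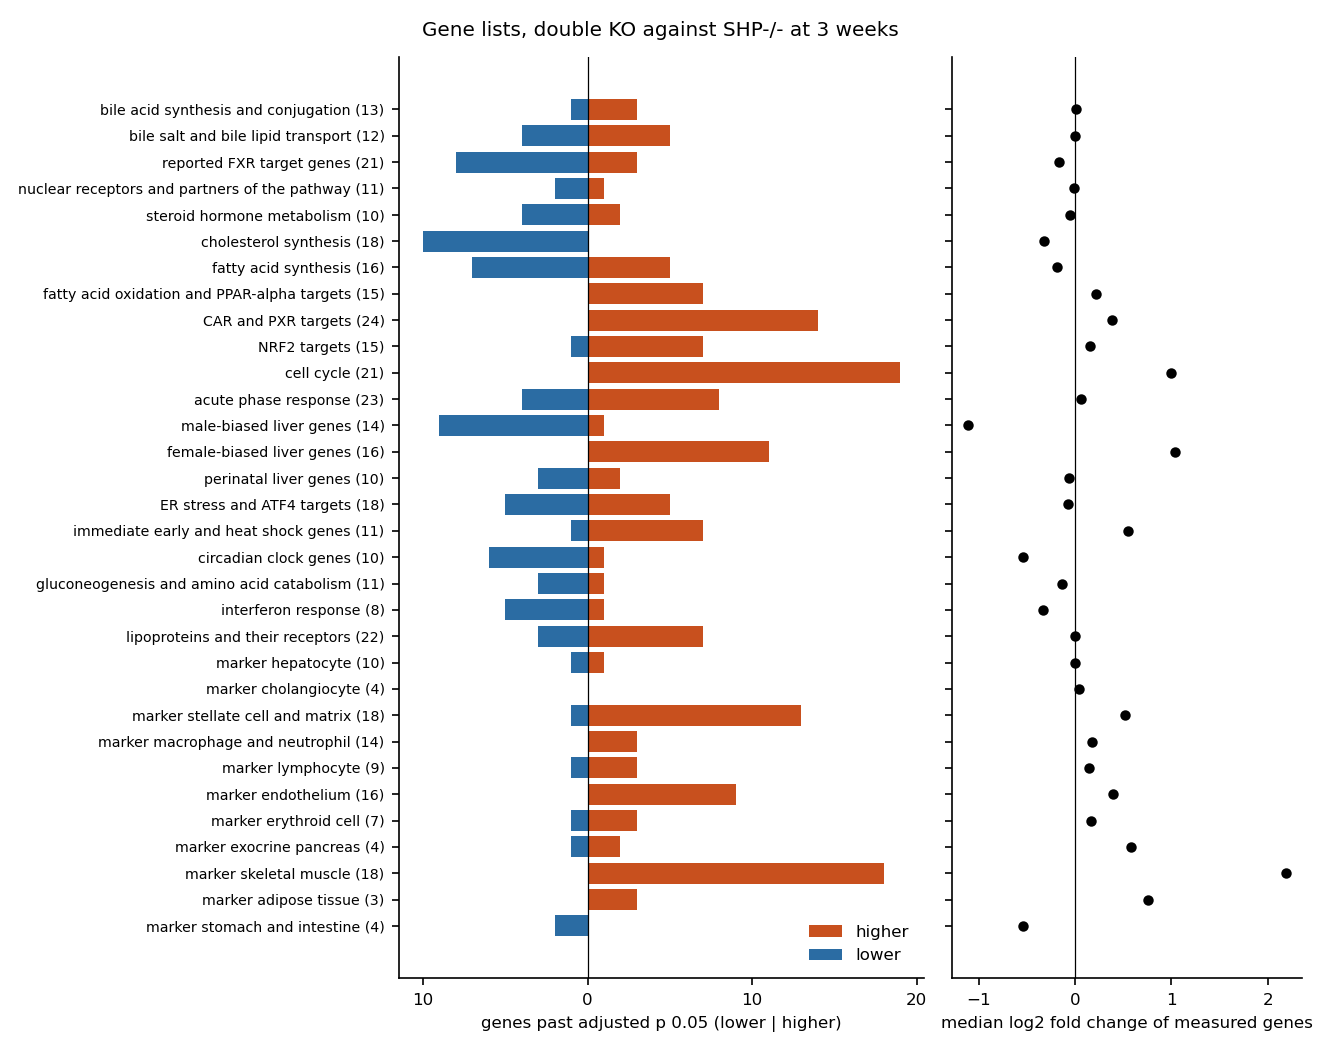
Left, number of genes per list that rose (orange, to the right) or fell (blue, to the left) in the double knockout against SHP-/- at an adjusted p under 0.05, with the number measured in brackets; right, the median log2 fold change of the measured genes. Skeletal muscle (2.19), female-biased (1.04) and cell cycle (1.0) genes have the highest medians and male-biased genes (-1.11) the lowest.

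**Figure D4:**
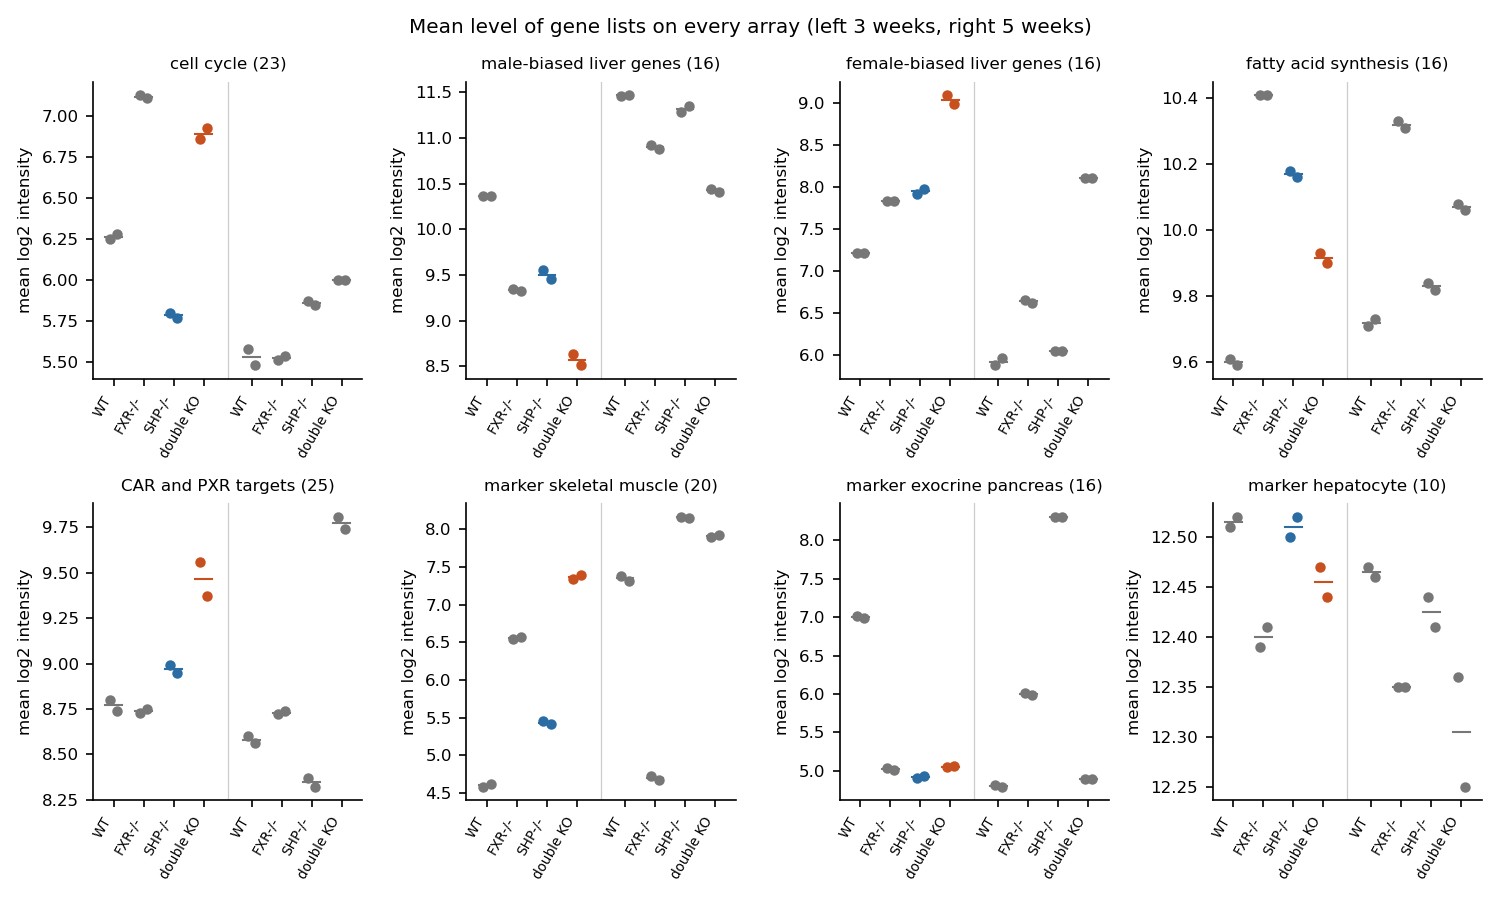
Mean log2 intensity of all tested genes of 8 lists on each array, points for arrays and bars for group means, 3 weeks left and 5 weeks right; SHP-/- at 3 weeks is blue and the double knockout at 3 weeks orange. The duplicates lie close together, male-biased genes are lower and cell cycle and muscle genes higher in the double knockout than in SHP-/-, and exocrine pancreas genes are high in wild type at 3 weeks and SHP-/- at 5 weeks.

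The effect of FXR loss on the SHP-/- background was then set beside its effect on the wild-type background at the same age, that is FXR-/- against wild type, on 4 other arrays of the same slide. There 22.9% of the 7553 genes changed. Of the 1036 genes that rose on the SHP-/- background 477 also rose on the wild-type background, which is 46.0% of the former and 53.7% of the 889 that rose in the latter. Of the 961 that fell 370 fell in both, 38.5% and 44.2% of the lists, and 42 and 49 genes moved in opposite directions. Over the 7553 genes the log2 differences had a Pearson r of 0.58, as a description across genes, which are not independent replicates. The difference between the effects was itself past the threshold for 833 genes (11.0%), 417 higher and 416 lower on the SHP-/- background. That count was 1319 without the first double knockout array and 543 without the second FXR-/- array. Exocrine pancreas markers averaged 7.01 and 6.99 and stomach and intestine markers 7.19 and 7.07 in wild type at 3 weeks against 4.65 to 5.06 in the other 3 groups, and their part in these differences was not tested. Eif2s3y was not detected in FXR-/-, as given above.

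Cyp7a1 and Cyp8b1 responded less to FXR loss where SHP was absent, and 4 of the 13 synthesis genes differed between the backgrounds. Cyp7a1 rose by 1.03 on the SHP-/- background and by 2.45 on the wild-type background, where it went from 9.91 and 9.80 to 12.29 and 12.31 (difference -1.42 ± 0.15, adjusted p = 2.1e-06). Cyp8b1 rose by 0.28 against 1.19 (difference -0.91 ± 0.12, adjusted p = 3.3e-05); it stood at 11.93 and 11.98 in wild type and already at 13.02 and 12.88 in SHP-/-. For both genes the SHP-/- arrays lay between wild type and the FXR-/- arrays. Cyp7b1 went the other way, with 0.94 against 0.16 (difference 0.78 ± 0.17, adjusted p = 0.0044). Vldlr rose by 0.93 against 2.60 and Apoc2 fell by 1.11 against 2.91, differences of -1.67 and 1.80.

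Of the 12 transport genes 3 differed between the backgrounds: Slc10a1, Abcc2 (0.31 against -0.32, adjusted p of the difference 0.0013) and Abcg5 (-0.05 against -0.48, adjusted p 0.04). The falls of Abcb11 (-1.18 against -0.96, adjusted p of the difference 0.33) and Slc51b (-1.46 against -1.14, adjusted p 0.21, with the arrays lacking FXR at 4.22 to 4.41, so that neither size is exact) differed by -0.22 ± 0.13 and -0.32 ± 0.15, and Abcb4 differed by 0.28 ± 0.10 (adjusted p = 0.089). These values do not show that the effects are equal. Slc10a1 fell by 1.02 against a difference of -0.36 on the wild-type background, a gap of -0.66 ± 0.21 (adjusted p = 0.046) that was lost when any of 6 single arrays was left out.

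Cyp17a1 responded far more to FXR loss where SHP was absent. It read 7.19 and 7.23 in wild type, 7.55 and 7.61 with FXR alone absent, 7.86 and 7.78 in SHP-/- and 10.59 and 10.82 in the double knockout, so FXR loss raised it by 2.88 without SHP and by 0.37 with it (difference 2.51 ± 0.15, adjusted p = 1.3e-09). Cyp2b10 rose by 1.08 where it fell by 0.53 on the wild-type background, and Cyp2c55 rose by 1.82 where it fell by 0.87. Angptl4 rose by 1.50 against a fall of 1.11. Fgf21, undetected in SHP-/-, was at least 1.65-fold higher in the double knockout (log2 difference 1.35) but fell by 1.57 log2 units on the wild-type background. Thrsp fell by 1.79 against a rise of 0.70 (difference -2.49 ± 0.17), Dct fell by 2.63 against a rise of 0.87, and Chrna4 fell by 2.19 against a rise of 1.43. Hsd3b5 fell on both backgrounds, by 2.49 and 1.09. Of 16 fatty acid synthesis genes 13 differed between the backgrounds: on the wild-type background 14 rose and 0 fell.

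Of the 5 genes with the largest differences in the positive direction, Serpina1e, Mgst1, Cyp2b9 and Tff2 fell in FXR-/- against wild type by more than 4 log2 units and had differences under 1 on the SHP-/- background. Serpina1e, an alpha-1-antitrypsin, read 13.87 and 13.63 in SHP-/- and 13.66 and 13.72 in the double knockout, but wild type had 13.84 and 13.80 where FXR-/- had 8.71 and 8.65. Mgst1, a microsomal glutathione transferase, fell by 0.63 here and by 5.88 there. Cyp2b9 differed by 0.13 here and fell by 4.49 there, and Tff2, a stomach trefoil factor, by -0.23 and fell by 6.64, from 11.96 and 11.97 in wild type. Apoh gave the largest value (9.25 ± 1.81), with discordant duplicates and a difference of 2.42 here that did not pass. At the other end, Cyp2c39 rose by 1.86 here and by 5.11 there. Cyp2c50 rose by 0.53 here, a call lost in 5 alternatives, and by 3.27 there.

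**Figure D5:**
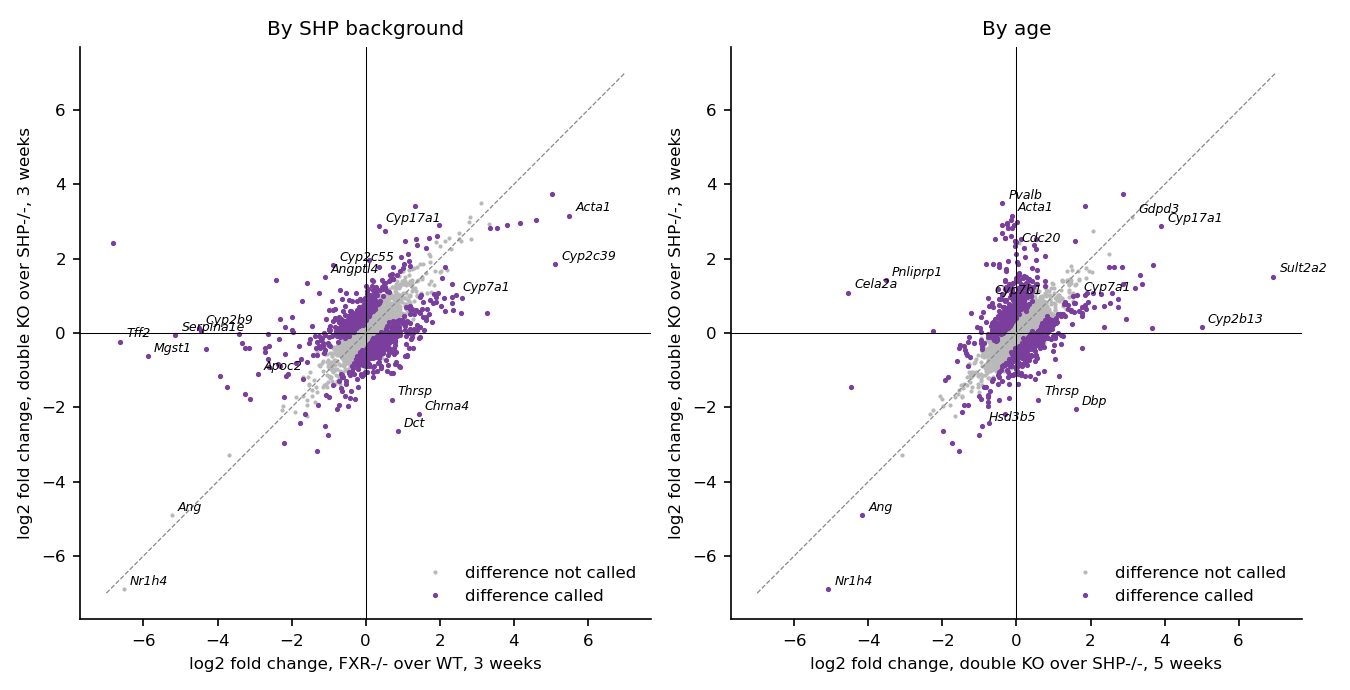
Log2 fold change of FXR loss on the SHP-/- background at 3 weeks (y axes) against that of FXR loss on the wild-type background at 3 weeks (left x axis) and on the SHP-/- background at 5 weeks (right x axis); each point is 1 of 7553 genes, purple where the difference has an adjusted p under 0.05, and the dashed line marks equal effects. Cyp17a1 lies at 2.88 with 0.37 on the left and 3.91 on the right, and the muscle genes Pvalb and Acta1 lie at 3.49 and 3.16 with -0.38 and -0.13 on the right.

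At 5 weeks the same genotypes were compared on 4 arrays of another slide, so age and slide cannot be told apart. The second double knockout array of 5 weeks also had low control signals, with biotin at 903.0 and Cy3 hybridisation at 1981.3. Biotin read 2834.2 to 3487.3 on the 14 arrays that were not a second double knockout array. In the 5-week comparison 22.1% of the 7553 genes changed. Of the 1036 genes that rose at 3 weeks 470 rose at 5 weeks, 45.4% of the former and 49.0% of the latter list, and of the 961 that fell 376 fell at both ages, 39.1% and 52.8%. The Pearson r over genes was 0.53. The effect of FXR loss differed between the ages for 697 genes (9.23%), 348 higher and 349 lower at 5 weeks. That count was 1256 without the first double knockout array of 3 weeks and 439 with the compared arrays alone.

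Of the 12 transport genes 1 and of the 13 synthesis genes 2 differed between the ages. Abcb11 fell by 1.18 at 3 weeks and 1.22 at 5 weeks (difference -0.04 ± 0.13, adjusted p = 0.91). Slc51b fell by 1.46 and 0.87; the double knockout was not detected at 3 weeks and the difference, 0.59 ± 0.15, was lost in 7 of the alternatives. Cyp7a1 rose by 1.03 and 1.64 (0.61 ± 0.15, adjusted p = 0.011), a difference lost with the compared arrays alone and without either of 2 single SHP-/- arrays. Cyp7b1 rose by 0.94 at 3 weeks and fell by 0.77 at 5 weeks (difference -1.71 ± 0.17, adjusted p = 9.9e-07). Cyp17a1 rose by 2.88 and 3.91, a difference of 1.03 that was 0.27 and not past the threshold on the scale of the authors' processed values. Nr1h4 fell by 6.90 and 5.08, since its probe read 5.87 and 6.17 in the double knockout at 5 weeks.

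Most muscle and cell cycle genes differed between the ages. Of 18 muscle markers 18 differed and 0 rose at 5 weeks, when the list mean was 8.17 and 8.15 in SHP-/- and 7.90 and 7.93 in the double knockout. At that age the list mean was 7.38 and 7.32 in wild type but 4.72 and 4.67 in FXR-/-. Pvalb, Acta1 and Pgam2 gave differences between the ages of -3.87, -3.29 and -3.29. Of 21 cell cycle genes 17 differed, and 3 rose at 5 weeks against 19 at 3 weeks. Cela2a and Pnliprp1, pancreatic enzymes, rose by 1.09 and 1.42 at 3 weeks and fell by 4.54 and 3.53 at 5 weeks, when exocrine pancreas markers averaged 8.30 and 8.31 in SHP-/- against 4.89 on both double knockout arrays. Sult2a2 rose by 1.52 and 6.94, because it stood at 11.92 and 11.99 in SHP-/- at 3 weeks but 5.58 and 5.67 at 5 weeks. Cyp2b13 and Cyp2b9 were not past the threshold at 3 weeks (0.15 and 0.13) and rose by 5.00 and 3.65 at 5 weeks, Cyp2b10 rose by 1.08 and 2.58, and Ly6d, a lymphocyte surface antigen, was at 0.37, not past the threshold, and rose by 2.96. Dbp fell by 2.05 and rose by 1.60, and Hsd3b5 fell by 2.49 and 0.92.

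A set of genes, called the core below, changed alike in the 3 comparisons above. FXR-/- against wild type at 5 weeks was not among these comparisons. The 3 share no array, but they take the same spread per gene from 1 fit, so their calls are not independent. The core held 491 of the 7553 genes, 276 up and 215 down, where the single comparisons called 26.4%, 22.9% and 22.1%. Of the 491, 65 changed at least 2-fold each time (34 up, 31 down). Ang had log2 differences of -4.89, -5.24 and -4.17 (SHP-/- background at 3 weeks, wild-type background at 3 weeks, SHP-/- background at 5 weeks), Pigr of -2.97, -2.20 and -1.74, and Slc46a3 of -2.18, -1.64 and -2.33. Gdpd3 was among those that rose, and Cyp2a4 rose by 1.79, 2.14 and 2.64 and Hbb-b2 by 3.74, 5.02 and 2.87. The near-identical globin Hbb-bt had differences of -0.39, -3.14 and -1.54 in the same comparisons, and cross-hybridisation could not be separated, as given above. Lgals1 (galectin-1, 1.68), Trp53inp1, a p53 target (1.66), Serpina6, the corticosteroid carrier (1.70), Serpina7, the thyroxine carrier (2.13), Cd63, a tetraspanin of late endosomes (1.78), and Sgk1, a kinase induced by corticosteroids (1.75), rose in all 3. Igfbp2, an IGF carrier (-1.77), Amdhd1, of histidine breakdown (-1.39), and Foxq1, a forkhead factor (-1.41), fell in all 3. At 5 weeks Sgk1 averaged 8.60 in wild type and 8.51 in FXR-/-, and Trp53inp1 8.66 and 8.65. Cdkn1a, also 2-fold higher in the 3 comparisons, averaged 7.68 and 5.97, the opposite direction. The means of the other genes named in this paragraph moved there in the direction of the 3 comparisons. The core genes were picked after their values were seen, and no test was made of the set. Supt16, Rnf152 and Lrrc61 are in it by 1 probe each, and their second probes gave -0.02 for Supt16 and 0.06 for both others at 3 weeks.

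Genes near the deleted locus and on 1 other chromosome were also looked at. By the order of genes in GRCm38.p6, 4 of the 30 measured genes nearest to Nr1h4 on chromosome 10 rose and 5 fell, beside 26.4% called among all genes; Mybpc1, a muscle gene, and Amdhd1 changed at least 2-fold. Of the 65 core genes 11 (16.9%) lay on chromosome 14, against 267 of all 7553 (3.5%): Abcc4, Ang, Fam25c, Fitm1, Gdf2, Lrit1, Ndrg2, Psmb5, Supt16 (by 1 of its 2 probes), Tmem260 and 1700123O20Rik. In the stretch from Ang to 1700123O20Rik, 9 of 21 measured genes changed, 7 of them downward. Psmb5, a proteasome subunit, fell from 9.70 and 9.73 to 7.66 and 7.91, and Gdf2 (BMP9), a ligand made by stellate cells, fell from 5.90 and 6.21 to undetected, at least 2.35-fold lower. This stretch was noticed in the values, and no test was made of it.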

How the data were processed

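RNA from mouse liver was hybridised to 16 Illumina mouse Ref-8 v1.1 bead arrays, 2 for each of 8 groups, after biotin labelling per the labels' protocols. The authors deposited a non-normalised intensity and a detection p-value per probe, exported from BeadStudio (BSGX 3.2.3) per the file headers. The deposited processed values, taken on the log2 scale, served as an alternative only. Intensities were background-corrected and quantile-normalised by limma's neqc (limma 3.58.1, R 4.3.3; offset 16), which gives log2 intensities. The brightest probe detected (p under 0.01) on both arrays of any group stood for each gene; 20984 probes carried 1 gene symbol, 1 several and 3628 none. One linear model over all 16 arrays (lmFit, contrasts.fit and eBayes with a trend, 8 residual degrees of freedom) gave log2 differences with standard errors, and p-values were adjusted by Benjamini-Hochberg over 8140 genes. The 16 columns of bead numbers were not used. All 3-week arrays lay on 1 slide and all 5-week arrays on another. The calculation was tested on simulated data. Where a gene was detected on 0 arrays of a group, the fold is a lower bound against the lowest detected signal. The bound holds on the neqc scale only. Over the alternatives the smallest log2 differences were 1.66 for Gdpd3, 0.96 for Aurka, -1.39 for Cyp4a12a, -1.84 for Supt16 and -5.08 for Nr1h4. For Slc51b, Spink1, Gdf2, Fgf21 and Atp4a they were -0.63, -0.70, -0.75, 0.59 and -0.31. Each was short of its bound.

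The comparisons, the members and the 33 gene lists were chosen with earlier results of these data known. Genes named were the 12 largest rises and falls, up to 4 per list, all members of the 4 bile acid lists and the 5 largest differences in each direction between backgrounds and ages. Alternatives were normalisation, detection filter, probe choice, arrays in the fit, variance model, replicate block and leaving out each array. The number of arrays limits the precision.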

Additional observations from a re-analysis of the deposited data

Results flagged for a closer look

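At 3 weeks the effect of FXR loss differed between the SHP-/- and the wild-type background for 833 genes, by the contrast of both effects in limma. Among the named genes the effect was lower on the SHP-/- background for Chrna4 (-3.62), Dct (-3.49), Cyp2c39 (-3.25), Cyp2c50 (-2.74), Thrsp (-2.49), Vldlr (-1.67), Cyp7a1 (-1.42), Hsd3b5 (-1.40), Cyp8b1 (-0.91) and Slc10a1 (-0.66). It was higher for Apoh (9.25, with duplicates that disagreed), Tff2 (6.40), Mgst1 (5.25), Serpina1e (5.08), Cyp2b9 (4.62), Cyp17a1 (2.51), Apoc2 (1.80), Cyp2b10 (1.61) and Cyp7b1 (0.78). Eif2s3y was not detected on the FXR-/- arrays and stomach markers were high in wild type, as given above, and the part of either in these differences was not tested.

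The effect on the SHP-/- background differed between 5 and 3 weeks for 697 genes, with age and slide not separable. Values of 5 minus 3 weeks were positive for Sult2a2 (5.42), Cyp2b13 (4.86), Dbp (3.66), Cyp2b9 (3.52), Ly6d (2.59), Nr1h4 (1.81), Hsd3b5 (1.57), Cyp2b10 (1.50), Cyp17a1 (1.03), Cyp7a1 (0.61) and Slc51b (0.59). They were negative for Cela2a (-5.63), Pnliprp1 (-4.96), Pvalb (-3.87), Acta1 (-3.29), Pgam2 (-3.29) and Cyp7b1 (-1.71). Exocrine pancreas and skeletal muscle markers moved with group at 5 weeks, as given above, and their part was not tested.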

How the results depend on the processing

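The count of 1997 changed genes was 1045 (595 higher, 450 lower) with the 4 compared arrays alone, 1041 of them shared with the 1997, and 1348 to 2493 with 1 array left out. The 279 genes changed at least 2-fold were 180 with quantile normalisation, 128 on the authors' processed values and 277 to 328 with 1 array left out. The 833 differences by background ranged from 543 to 1319 and the 697 by age from 497 to 1256 with 1 array left out, and the latter were 439 with the compared arrays alone. With the replicate number as a block the counts were 1923, 279, 740 and 651. Same-numbered arrays of the same age did not deviate together (r of 0.04 between SHP-/- and the double knockout at 3 weeks). This was not computed between the ages, and the second double knockout array had low control signals at both. Of 210 named genes 177 were called and 155 of these in every alternative run; 0 of the called genes reversed, and 11 that were not called passed in some alternative. The cause of these shifts was not tested. With 2 arrays a group, a group with 1 array left out is assumed to vary like the others.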
